A study of Mus musculus with 6 samples.

Results

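The 33 genes described here make, sense, move and export cholesterol, and were taken by gene name from a table of 57180 genes, where each was found once. They comprise 19 enzymes of cholesterol synthesis, 4 sterol-sensing genes, 5 genes of uptake, movement and storage, and 5 genes of the LXR and efflux arm. Inguinal white adipose tissue, the subcutaneous fat of the groin, was profiled by RNA sequencing in 6 libraries from male wild-type mice. In 3 libraries, called HEP, the mice had a high-fat diet with 0.5% hesperidin, a flavonoid glycoside of citrus peel. In the other 3, called HFD, they had the high-fat diet alone. The diets ran for 12 weeks, and no animal age is given. Abundance is in TPM, each gene's share of a library's transcripts after division by transcript length, scaled to a fixed total, so levels of different genes can be compared. TPM keeps no read depth, so the depth behind each value was unknown. The labels do not say that the 3 samples of a group came from separate animals, so the p-values speak to the spread among these libraries only, which may be technical.

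Cells build cholesterol from acetyl-CoA through mevalonate, farnesyl diphosphate, squalene and lanosterol. When membranes of the endoplasmic reticulum run low in sterol, the escort protein SCAP carries the transcription factor SREBP2 to the Golgi for cleavage, and SREBP2 then switches on most of the synthesis genes. INSIG proteins hold SCAP back when sterol is plentiful. The liver X receptors (LXR) sense oxysterols and switch on exporters such as ABCA1 and ABCG1. Adipose tissue holds a large pool of unesterified cholesterol, much of it at the surface of the lipid droplet, and takes in much of its cholesterol from lipoproteins.

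The libraries differed in cell content, and for lymphocyte and liver markers the differences crossed the diets. The 10 lymphocyte markers, among them Cd79b and Cd3e, summed to 1295, 14.2 and 1424 TPM in HEP replicates 1 to 3 and to 9.20, 15.3 and 783 TPM in HFD replicates 1 to 3. The 7 adipocyte markers, among them Adipoq and Fabp4, were high in every library, with sums of 27107, 43876 and 26546 TPM in HEP and 43029, 45572 and 35614 TPM in HFD. The HEP mean of each of the 7 was 64.15% to 80.1% of its HFD mean, though the values overlapped between the diets. Of the endothelial markers, Cdh5, Kdr and Tie1 had all HEP values below all HFD values and Pecam1 did not. That pattern was seen in 3.58% of all tested genes. The 8 skeletal muscle markers reached 13447 TPM in HEP replicate 2, against 52.3 to 1535 TPM in the other libraries. The 7 liver markers summed to 2647 TPM in HEP replicate 2 and 1713 TPM in HFD replicate 1, against 12.3 to 109 TPM elsewhere. In bulk tissue, fewer cells of a type and less RNA per cell cannot be told apart.

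The comparison asked how hesperidin altered these genes on a high-fat diet. No member passed the test. All 33 reached the mean of 1 TPM needed for testing, and with limma on log2(TPM + 1) 0 of 33 had an adjusted p under 0.05, as did 0 of 15446 genes tested (0% of the table). The smallest adjusted p of any member was 0.879. At an unadjusted p under 0.05, 3 members were lower in HEP (Mvk, Nsdhl and Fdps) and 0 were higher, where the whole table had 1.13% lower and 0.68% higher. For 6 members (Mvk, Pmvk, Idi1, Fdps, Nsdhl and Insig1) all 3 HEP values lay below all 3 HFD values, a pattern seen in 3.58% of all tested genes. The opposite pattern was seen in 0 members and in 1.88% of tested genes. The lack of overlap depended on scaling. Values were also divided by the geometric mean of each library's adipocyte markers, after the data were seen. Mvk then stayed without overlap by a narrow margin. Its nearest scaled values were 11.33 in HEP replicate 1 and 11.43 in HFD replicate 3, in arbitrary units. The log2 fold change of Mvk was -0.137 under this scaling, against -0.565 as deposited. Fdps, Nsdhl and Insig1 overlapped between the diets once scaled. Pmvk and Idi1 had log2 fold changes of 0.198 and 0.159 under this scaling, so their HEP values no longer all lay below their HFD values. The share of all tested genes without overlap under this scaling was not counted. As deposited, the fitted log2 fold change was below 0 for 20 of 33 members, against 41.4% of all tested genes. Its median was -0.09, against 0.07 over the table. The median standard error of a member's log2 fold change was 0.21. Once each library was scaled to its adipocyte markers, 1 of 33 members was below 0. The median of the members was then 0.335, against 0.472 over the table. The count at an unadjusted p under 0.05 depended on single libraries. It was 0 lower and 0 higher without HEP replicate 1, HEP replicate 3, HFD replicate 1 or HFD replicate 2. It was 5 lower and 3 higher without HEP replicate 2, where 3789 of 15394 genes in the table also had such a p.

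**Figure D1:**
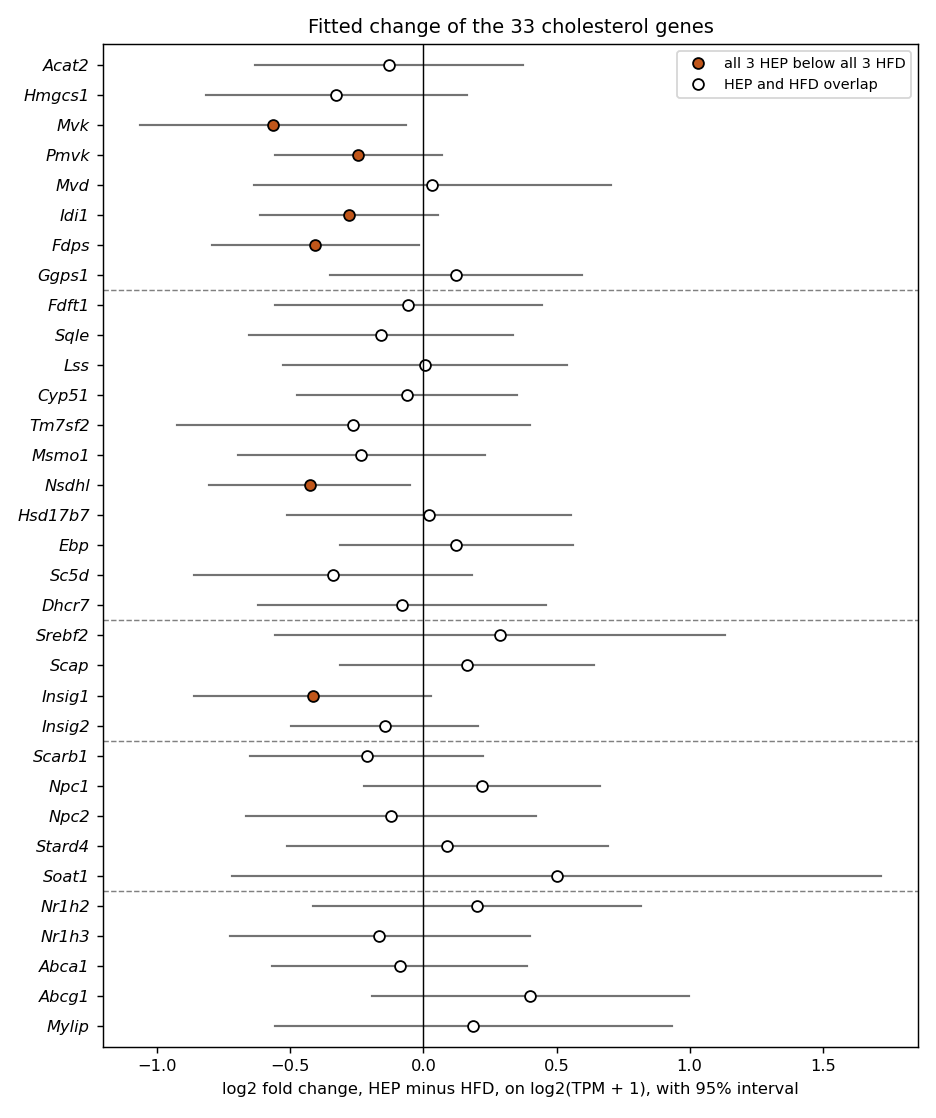
Fitted log2 fold change (HEP minus HFD, on log2(TPM + 1)) of the 33 cholesterol genes with the 95% interval of limma on the TPM as deposited, grouped by role from the mevalonate steps at the top to the LXR and efflux genes at the bottom. Filled points mark the 6 genes whose 3 HEP values all lie below the 3 HFD values, and the intervals of Mvk, Fdps and Nsdhl alone leave out 0 before adjustment.

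Genes of the mevalonate steps gave 4 of the 6 members without overlap. Mvk, mevalonate kinase, had 12.6, 14.3 and 10.1 TPM in HEP replicates 1 to 3, against 18.5, 22.2 and 15.6 TPM in HFD replicates 1 to 3. Every HEP library was below every HFD library, and the HEP mean was 65.8% of the HFD mean. For Mvk limma gave a log2 fold change of -0.57 ± 0.21 (SE), where p was 0.0326 before and 0.879 after adjustment. Pmvk, the kinase of the next step, had 27.3, 27.6 and 26.8 TPM in HEP, against 31.8, 34.9 and 30.8 TPM in HFD. Its HEP libraries were nearly alike, and the lowest HFD library stood above all of them. Idi1, which isomerises the isoprene unit, had 21.5, 19.3 and 20.9 TPM in HEP, against 23.9, 27.1 and 24.6 TPM in HFD. Fdps, farnesyl diphosphate synthase, had 28.0, 33.7 and 28.5 TPM in HEP, against 41.6, 44.6 and 34.6 TPM in HFD. The gap for Fdps was narrow, since HEP replicate 2 and HFD replicate 3 were less than 1 TPM apart. The fitted change was -0.41 ± 0.16 (log2, SE), where the limma p was 0.043 before and 0.879 after adjustment. In GENCODE M21, 26.7% of the exon length of Fdps is shared with another gene model, Gm43738, on the same strand. The deposited values hold no gene of that name, so whether the overlap touched the level of Fdps is unknown. The log2 fold changes of Pmvk (-0.24 ± 0.13, SE) and Idi1 (-0.28 ± 0.14, SE) were not past the test even before adjustment, with 95% intervals that included 0.

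The other mevalonate genes overlapped between the diets. Hmgcs1, which condenses acetyl-CoA with acetoacetyl-CoA, was the most abundant synthesis enzyme. It had 108, 165 and 113 TPM in HEP and 164, 173 and 140 TPM in HFD, so that HEP replicate 2 lay among the HFD libraries. Hmgcs1 alone made up 23.4%, 29.3% and 26.3% of the summed synthesis TPM in HEP, and 29.4%, 27.9% and 26.7% in HFD. Acat2, the cytosolic thiolase that makes acetoacetyl-CoA, had 38.6, 52.0 and 32.9 TPM in HEP and 47.9, 47.4 and 38.3 TPM in HFD, with HEP replicate 2 the highest of all. Mvd, the decarboxylase, was the least abundant of the 8, with 5.0, 4.05 and 5.62 TPM in HEP and 3.18, 6.35 and 5.09 TPM in HFD. Ggps1 leads away from sterols towards protein prenylation. It had 37.1, 24.0 and 29.97 TPM in HEP and 24.5, 28.4 and 29.5 TPM in HFD, a log2 fold change of 0.12 ± 0.20 (SE). 

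**Figure D2:**
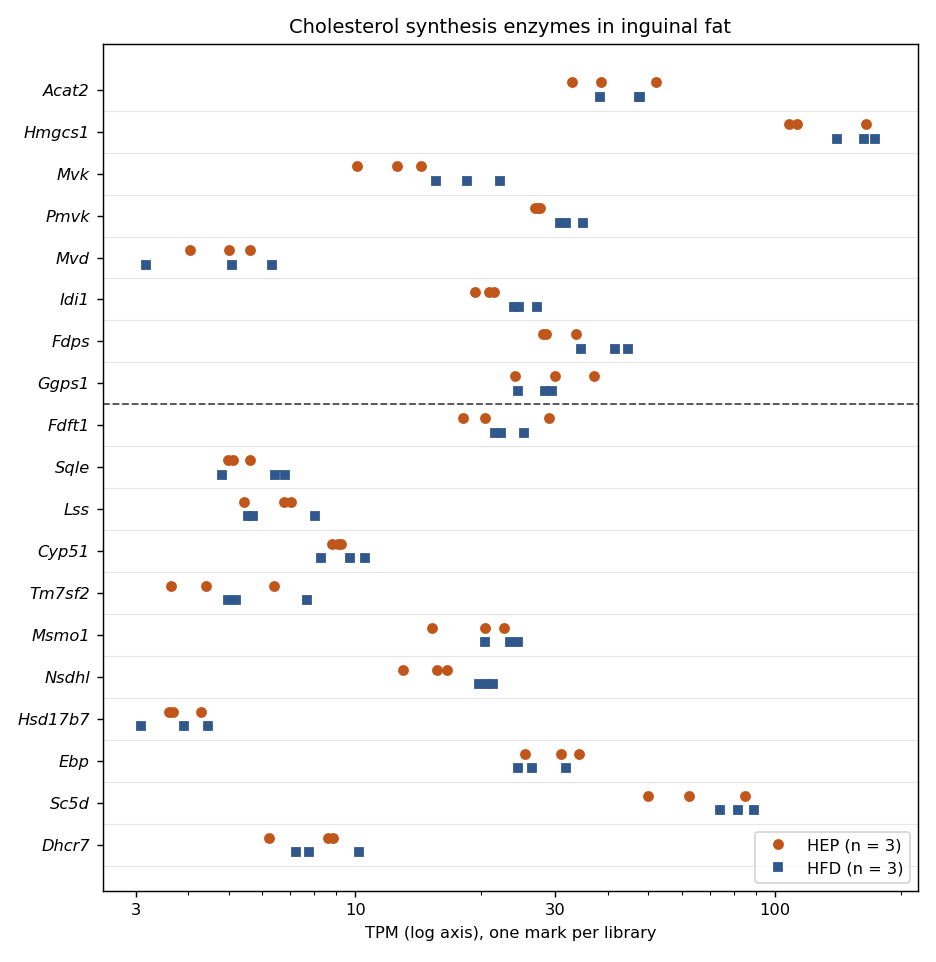
TPM of the 19 synthesis enzymes on a log axis, 1 mark per library, with the 3 HEP libraries as circles above the 3 HFD libraries as squares; genes run in pathway order, and the dashed line parts the mevalonate and isoprenoid steps from the squalene and sterol steps. Mvk, Pmvk, Idi1, Fdps and Nsdhl show no overlap, while Hmgcs1 spans 108 to 173 TPM and Hsd17b7 stays between 3.08 and 4.46 TPM.

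Of the 11 squalene and sterol genes, Nsdhl alone was without overlap. Nsdhl, the dehydrogenase that helps strip methyl groups from the sterol ring, had 13.0, 16.5 and 15.7 TPM in HEP, against 20.5, 21.3 and 19.7 TPM in HFD. Its HFD libraries lay close together, and the HEP mean was 73.5% of theirs. Its fitted change was -0.43 ± 0.16 (log2, SE), where the limma p was 0.0325 before and 0.879 after adjustment. Sc5d, the sterol desaturase, was the most abundant of this group, with 62.3, 84.8 and 49.9 TPM in HEP and 74.1, 89.3 and 81.7 TPM in HFD. Its HEP libraries ranged more widely than its HFD libraries, and HEP replicate 2 was within the HFD range. Hsd17b7, a ketosteroid reductase of the demethylation complex, was the least abundant, with 4.30, 3.60 and 3.69 TPM in HEP and 3.08, 4.46 and 3.90 TPM in HFD. Sqle, squalene epoxidase and a control point of the pathway, averaged 5.23 ± 0.33 TPM in HEP and 6.01 ± 1.05 TPM in HFD (SD, n = 3 each). Cyp51, the lanosterol demethylase, averaged 9.05 ± 0.20 TPM in HEP and 9.53 ± 1.17 TPM in HFD. Dhcr7, which makes cholesterol from its last precursor, averaged 7.89 ± 1.45 TPM in HEP and 8.39 ± 1.60 TPM in HFD. These 3 differences were within the spread of the HFD libraries. Fdft1 (squalene synthase), Lss (lanosterol synthase), Tm7sf2 (a sterol reductase), Msmo1 (a methylsterol oxidase) and Ebp (a sterol isomerase) also overlapped, with log2 fold changes between -0.26 and 0.12. The fold change of Fdft1 is uncertain, because 18.3% of its exon length in GENCODE M21 overlaps Ctsb on the other strand, a cathepsin at 766 to 1462 TPM here, and the labels do not say that strand was kept. Tm7sf2 shares 12.1% of its exon length with Vps51 on the same strand, a gene at 15.5 to 26.6 TPM.

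Over all 19 synthesis enzymes, the summed level was 464, 562 and 429 TPM in HEP and 556, 622 and 527 TPM in HFD, and HEP replicate 2 overlapped the HFD range. The median log2 fold change was -0.16, with 14 of 19 below 0. This direction depended on scaling. When each library was divided by the geometric mean of its adipocyte markers, an alternative added after seeing the data, 1 of 19 was below 0 and the median was 0.23. That scaling moved the median of all tested genes to 0.47. Relative to the median of all tested genes, 17 of 19 synthesis enzymes were lower as deposited, by a median of 0.23 on the log2 scale. A factor common to all genes of a library leaves such relative values nearly unchanged by construction, so they say nothing of which scaling applies. The part of adipocyte content in these differences was not tested.

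Among the sterol sensors, Insig1 was without overlap and Insig2 was not. Insig1, itself a target of SREBP, had 66.8, 80.4 and 76.6 TPM in HEP replicates 1 to 3, against 92.9, 125 and 85.1 TPM in HFD replicates 1 to 3. HFD replicate 2 was far above the rest, and the HEP mean was 73.9% of the HFD mean. The fitted change was -0.42 ± 0.18 (log2, SE), where the limma p was 0.0626 before and 0.879 after adjustment, and it was -0.26 without HFD replicate 2. Insig2, which mouse liver regulates differently from Insig1, had 51.4, 53.4 and 49.9 TPM in HEP, against 58.0, 64.6 and 49.8 TPM in HFD. The ratio of Insig1 to Insig2 within a library, a measure that no scaling of libraries can change, was 1.30, 1.51 and 1.54 in HEP and 1.603, 1.93 and 1.71 in HFD. The ratios did not overlap between the diets, with 1.54 in HEP replicate 3 and 1.603 in HFD replicate 1 nearest to each other. Insig1 itself already parted by diet, so the ratio is no separate support. The measure was chosen after the values were seen, and no share over other gene pairs was counted. Its dependence on cell content was not tested.

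Srebf2 and Scap did not follow the enzymes. Srebf2, which encodes SREBP2, had 25.1, 11.7 and 24.5 TPM in HEP and 11.9, 15.6 and 20.6 TPM in HFD. Its 3 highest values stood in HEP replicates 1 and 3 and HFD replicate 3, the libraries rich in lymphocyte markers. Scap had 14.9, 9.84 and 13.0 TPM in HEP and 10.5, 10.9 and 11.6 TPM in HFD, high in the same 3 libraries. The log2 fold changes were 0.29 ± 0.35 for Srebf2 and 0.16 ± 0.20 for Scap (SE). With the lymphocyte marker mean of each library as a covariate, that of Srebf2 was -0.05.

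**Figure D3:**
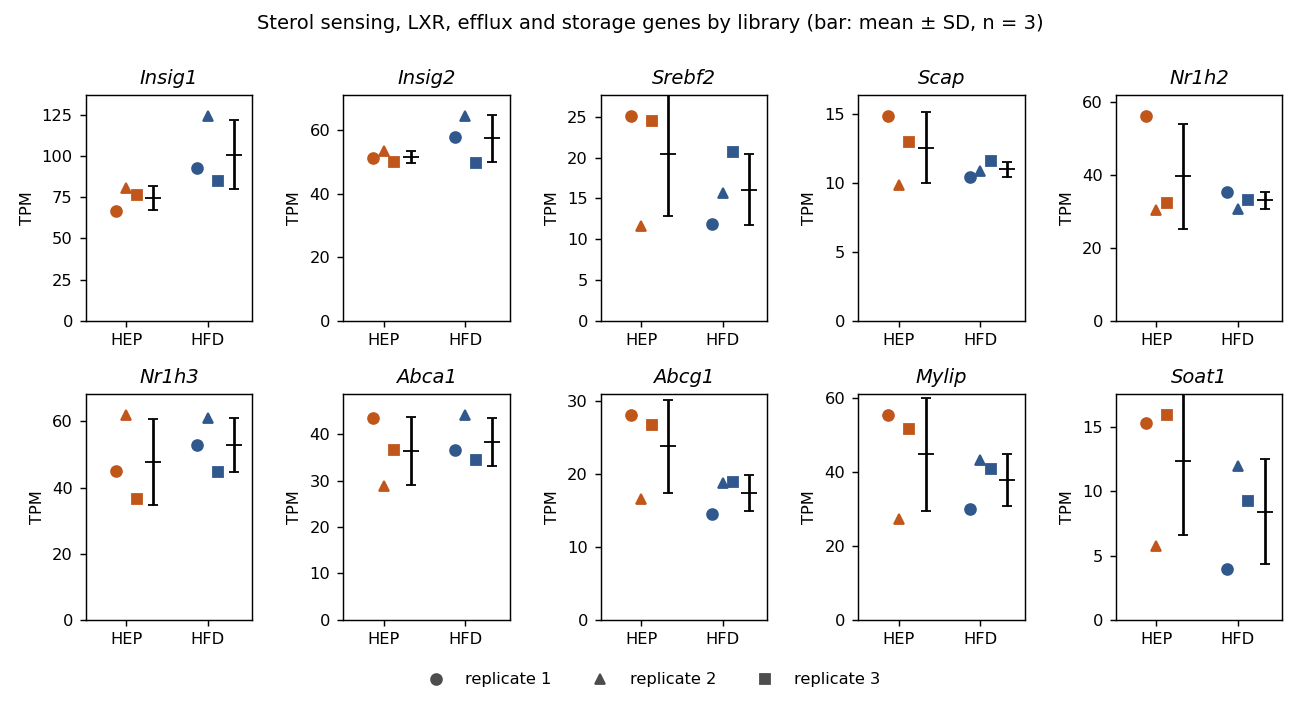
TPM of 10 sensing, LXR, efflux and storage genes in each library, HEP at the left and HFD at the right of each panel, with the replicate number shown by the shape of the mark and the mean ± SD (n = 3) as a black bar. The Insig1 values as deposited part by diet, while Srebf2, Scap, Nr1h2, Abca1, Abcg1, Mylip and Soat1 have HEP replicates 1 and 3 above HEP replicate 2.

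The promoter letters of the members were read beside these values. RefSeq windows of 250 bases before the annotated start (build GRCm38.p6) were found for 26 of the 33 members, in 33 windows. Letters of 3 motifs were searched on both strands, and their matches share 0 bases in these windows. The SREBP motif TCACNCCAC was found in 1 member window, that of Hmgcs1, starting 137 bases before the start, and in 0.953% of the 13852 windows of tested genes. CCAAT, the box bound by NF-Y, a partner of SREBP, was in 63.6% of member windows and in 35% of windows of tested genes. GGGCGG, the box bound by SP1, was in 69.7% of member windows and in 54.5% of windows of tested genes. The windows of Mvk (chr5:114444019-114444268, + strand), Nsdhl (chrX:72918271-72918520, + strand) and Insig1 (chr5:28071162-28071411, + strand) are shown because these genes were without overlap. That of Hmgcs1 (chr13:119690101-119690350, + strand) is shown for its SREBP motif. Capitals mark the matches of the 3 motifs on either strand, 5′ to 3′.
Mvk: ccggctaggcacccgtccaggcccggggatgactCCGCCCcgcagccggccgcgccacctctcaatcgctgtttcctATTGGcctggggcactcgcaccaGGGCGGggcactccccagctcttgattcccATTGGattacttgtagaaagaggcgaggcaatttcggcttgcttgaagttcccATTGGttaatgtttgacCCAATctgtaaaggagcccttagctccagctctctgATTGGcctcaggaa
Nsdhl: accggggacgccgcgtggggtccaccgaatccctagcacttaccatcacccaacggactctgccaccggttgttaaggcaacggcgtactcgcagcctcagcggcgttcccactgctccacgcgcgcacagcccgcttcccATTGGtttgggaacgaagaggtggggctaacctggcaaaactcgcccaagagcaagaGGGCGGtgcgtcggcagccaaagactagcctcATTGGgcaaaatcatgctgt
Insig1: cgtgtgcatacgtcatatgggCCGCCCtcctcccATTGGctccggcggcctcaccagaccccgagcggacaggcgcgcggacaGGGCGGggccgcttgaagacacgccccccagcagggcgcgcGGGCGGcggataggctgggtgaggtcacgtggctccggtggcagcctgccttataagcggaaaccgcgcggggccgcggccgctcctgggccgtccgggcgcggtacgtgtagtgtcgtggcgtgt
Hmgcs1: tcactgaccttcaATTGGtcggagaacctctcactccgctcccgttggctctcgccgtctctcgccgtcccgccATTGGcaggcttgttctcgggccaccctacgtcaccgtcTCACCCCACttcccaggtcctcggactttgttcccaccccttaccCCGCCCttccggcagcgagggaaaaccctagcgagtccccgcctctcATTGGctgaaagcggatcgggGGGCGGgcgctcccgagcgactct
Mvk holds 5 CCAAT matches and 2 GGGCGG matches, Nsdhl holds 2 and 1, Insig1 holds 1 and 3, and Hmgcs1 holds 3 and 2. A match is a description of letters and not a bound site. Only these exact letters were searched, so a window without a match may still hold an SREBP site of other letters. The member with the SREBP motif overlapped between the diets. The members without overlap whose windows were searched, which leaves out Fdps, had no such match in these 250 bases. With a match in only 1 member window, the search cannot compare members with and without overlap.

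Genes of uptake, movement and storage all overlapped between the diets. Npc2, the lysosomal protein that hands cholesterol to NPC1, was the most abundant of all 33 members, with 260, 349 and 237 TPM in HEP and 285, 382 and 255 TPM in HFD. Its partner Npc1 averaged 25.5 ± 4.15 TPM in HEP and 21.7 ± 2.82 TPM in HFD (SD, n = 3 each), a log2 fold change of 0.22 ± 0.18 (SE). Scarb1, the receptor for high-density lipoprotein, averaged 58.2 ± 5.67 TPM in HEP and 68.3 ± 13.1 TPM in HFD. Stard4, a carrier of free sterol, was the least abundant of the 5, with 8.03, 5.0 and 8.39 TPM in HEP and 5.49, 6.80 and 7.33 TPM in HFD.

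Soat1, which esterifies cholesterol for storage, varied more between libraries than any other member. It had 15.3, 5.75 and 16.0 TPM in HEP replicates 1 to 3 and 3.95, 12.0 and 9.27 TPM in HFD replicates 1 to 3, so that the highest library was 4.04 times the lowest. HEP replicate 2 and HFD replicate 1, the libraries highest in liver markers, had its lowest values. Both were also poor in lymphocyte markers, and its highest values stood in HEP replicates 1 and 3, which were rich in them. HFD replicate 2, poor in lymphocyte markers too, stood above HFD replicate 3 for Soat1. HFD replicate 2 also had the most macrophage marker RNA, with a sum of 788 TPM over 10 genes, against 358 to 482 TPM in the other 5. The log2 fold change of Soat1 was 0.50 ± 0.50 (SE), and it ranged from 0.09 without HFD replicate 1 to 0.93 without HEP replicate 2. With the lymphocyte marker mean of each library as a covariate, it was 0.135. The part of these cell contents in the Soat1 values was not tested.

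LXR and its targets did not separate by diet. Nr1h3, which encodes LXR alpha, had 45.0, 62.0 and 36.4 TPM in HEP and 53.0, 61.1 and 44.6 TPM in HFD, and was lowest in the 3 libraries rich in lymphocyte markers. Nr1h2, which encodes LXR beta, had 56.4, 30.5 and 32.3 TPM in HEP and 35.4, 30.8 and 33.2 TPM in HFD. HEP replicate 1 alone was high for Nr1h2, and the other 5 libraries lay between 30.5 and 35.4 TPM. Its log2 fold change was 0.20 ± 0.25 (SE) over all libraries and -0.07 without HEP replicate 1. In HEP replicate 1 the ratio of Nr1h3 to Nr1h2 was 0.80, against 1.13 to 2.03 in the other libraries.

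The 2 exporters differed from each other in their library order. Abcg1, which passes cholesterol to high-density lipoprotein, had 28.2, 16.5 and 26.8 TPM in HEP and 14.6, 18.9 and 19.0 TPM in HFD. HEP replicates 1 and 3 were above every HFD library and HEP replicate 2 was not. The fitted change of Abcg1 was 0.40 ± 0.25 (log2, SE), where the limma p was 0.151 before and 0.879 after adjustment. Abca1, which loads cholesterol onto lipid-poor apolipoprotein, had 43.6, 28.8 and 36.5 TPM in HEP and 36.6, 44.2 and 34.3 TPM in HFD, a log2 fold change of -0.09 ± 0.20 (SE). Its 95% interval ran from -0.57 to 0.39. Mylip, an LXR-induced ubiquitin ligase that limits lipoprotein uptake, averaged 44.7 ± 15.4 TPM in HEP and 37.8 ± 7.04 TPM in HFD (SD, n = 3 each). With the lymphocyte marker mean as a covariate, the median log2 fold change of these 5 genes was 0.03, against 0.19 without it. It was -0.07 without HEP replicate 1. The median of all tested genes also moved, from 0.071 to -0.005 with the covariate and to -0.031 without HEP replicate 1.

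**Figure D4:**
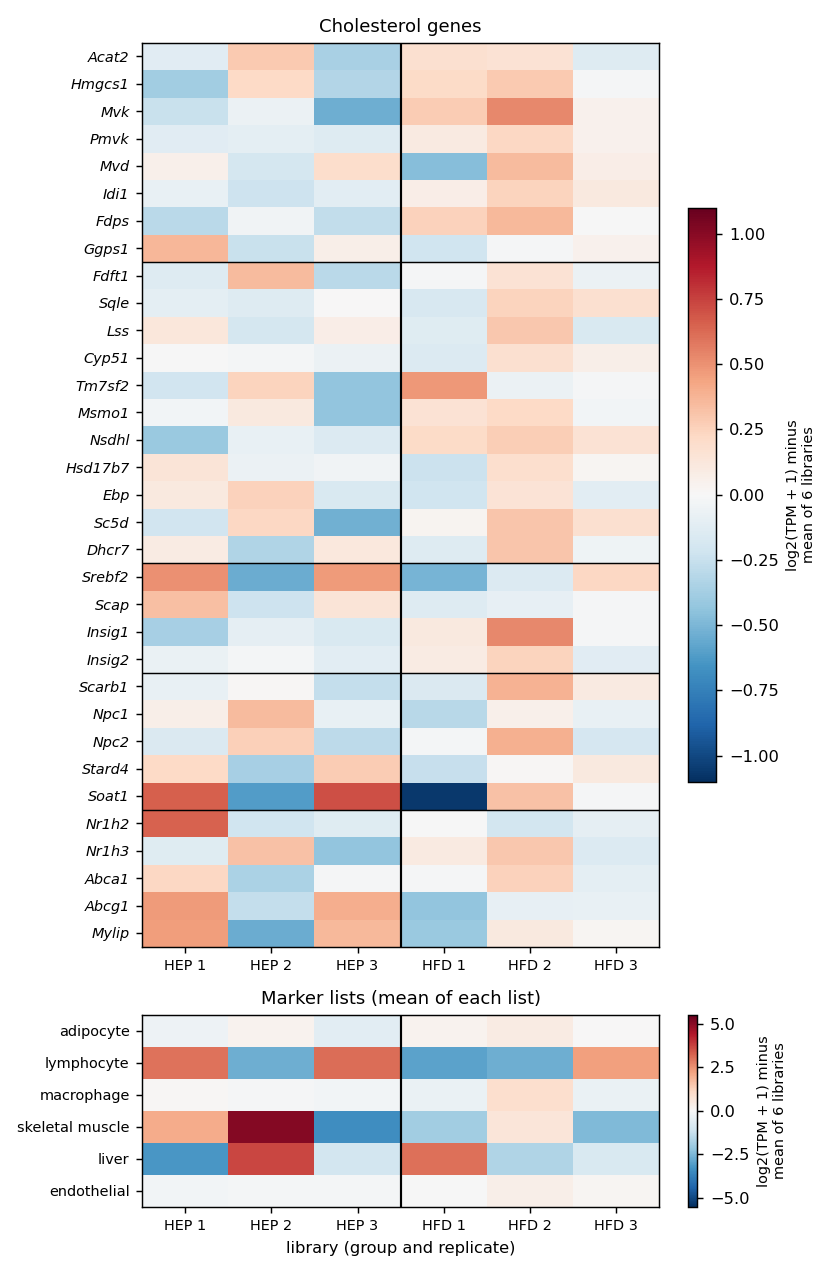
Upper panel, log2(TPM + 1) of each of the 33 genes in each library minus that gene's mean over the 6 libraries, with roles parted by lines; lower panel, the same for the mean of 6 marker lists, on its own colour scale. Srebf2, Scap, Stard4, Abcg1 and Ggps1 are high where the lymphocyte list is high (HEP replicates 1 and 3 and HFD replicate 3), and Soat1 shows the largest deviation, 1.06 below its mean in HFD replicate 1.

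The 3 libraries rich in lymphocyte markers lay all above or all below the other 3 in 12 of 33 members (36.4%), against 44.1% of all tested genes. In 5 members (Ggps1, Srebf2, Scap, Stard4 and Abcg1) they all stood above, as they did for 30.5% of tested genes. In 7 members (Acat2, Hmgcs1, Fdft1, Msmo1, Insig2, Npc2 and Nr1h3) they all stood below, as they did for 13.7% of tested genes. These counts describe the libraries and carry no test, and the same 3 libraries also had the 3 lowest adipocyte marker sums, so the contents cannot be told apart here.

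Other genes of the pathway were read from lists outside the members. Of 52 such genes 51 were tested, and 0 passed limma in either direction at an adjusted p under 0.05 or at an unadjusted p under 0.05. The 11 other SREBP regulators had a median log2 fold change of 0.06, the 10 isoprenoid branch enzymes -0.02, the 19 tested of 20 sterol transport and storage genes 0.06, and the 11 oxysterol enzymes and LXR partners 0.24. Rnf139, a ubiquitin ligase of the endoplasmic reticulum, was named after its values were seen, as the only one of the 52 without overlap. Its HEP values all lay above its HFD values, a pattern seen in 1.88% of all tested genes. It had 17.8, 15.1 and 15.7 TPM in HEP, against 10.9, 12.5 and 14.2 TPM in HFD, where the limma p was 0.0838 before and 0.879 after adjustment. Srebf1, which encodes the SREBP of fatty acid synthesis and is also an LXR target, had 65.5, 50.9 and 36.9 TPM in HEP and 67.9, 55.7 and 40.2 TPM in HFD. Its log2 fold change was -0.10 ± 0.28 (SE), within the spread between libraries.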

How the data were processed

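The authors deposited TPM for each gene and library, and a mean TPM per group that equalled the mean of the sample columns within 3.3e-05 TPM. Tools named in the submitters' processing notes are DESeq2, StringTie, RSEM, HISAT2 and fastp. Neither their versions and roles nor the genome build or annotation is stated there. Per the labels' protocols, TRIzol was used for the RNA and a TruSeq kit for the libraries. TPM is relative, so abundant transcripts of 1 library lower its other values, and no depth or counting interval could be given.

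Libraries were grouped by title. The 15446 of 57180 genes whose mean reached 1 TPM were fitted together as log2(TPM + 1) in limma 3.58.1 (R 4.3.3) with a variance trend, two-sided, and p-values were Benjamini-Hochberg adjusted over all of them with a threshold of 0.05. A fold change on this scale understates the change of low genes. The members and lists were chosen with earlier results of these data known. All 33 members are named. Values per library were printed for members without overlap, with an unadjusted p under 0.05, highest or lowest in a role, or among the sensors, receptors and exporters. Others were printed by choice after seeing the data. Exon overlap was read from GENCODE M21, which held all 33 member IDs, and 5 members shared over 10% of their exon length with another gene, namely Fdft1, Fdps, Hmgcs1, Scap and Tm7sf2. Idi1 and Nr1h2 have processed pseudogenes in the table, listed at 0 to 0.13 TPM, and Acat3, close in sequence to Acat2, was at 0.63 to 7 TPM. Motifs were searched in RefSeq promoter windows.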

Additional observations from a re-analysis of the deposited data

How the results depend on the processing

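In each of the 14 alternative settings 0 members passed. The number of genes passing over the whole table was 0 in each of them except without HEP replicate 2, so that it ranged from 0 to 1 when single libraries were left out. The median log2 fold change of the members was -0.213 with quantile normalization and 0.335 with adipocyte scaling, against -0.089 as deposited, and it ranged from -0.136 to 0.01 when single libraries were left out. Relative to the median of all genes it was between -0.264 and -0.065 in these settings, a measure that one factor for all genes of a library hardly moves. The cause of the differences between settings was not tested. The deviations of same-numbered libraries from their group means correlated at -0.355 for number 1, 0.368 for number 2 and 0.651 for number 3, and since number 1 was not above 0.1 the numbers were not taken to pair the samples. With the replicate number as a replicate block the median was -0.089 and 0 members passed. Signs of single members turned as follows, on the log2 scale. With median-of-ratios scaling they were -0.00036 for Mvd, -0.033 for Lss and -0.012 for Hsd17b7. With quantile normalization they were -0.146 for Mvd, -0.161 for Lss, -0.166 for Hsd17b7 and -0.079 for Stard4. With the lymphoid covariate they were 0.049 for Acat2, -0.07 for Mvd, -0.008 for Ggps1, 0.092 for Fdft1, -0.016 for Lss, -0.016 for Hsd17b7, -0.049 for Srebf2, 0.055 for Npc2, -0.091 for Stard4, 0.033 for Nr1h3 and -0.059 for Mylip. With adipocyte scaling they were 0.317 for Acat2, 0.126 for Hmgcs1, 0.198 for Pmvk, 0.159 for Idi1, 0.038 for Fdps, 0.378 for Fdft1, 0.232 for Sqle, 0.353 for Cyp51, 0.112 for Tm7sf2, 0.202 for Msmo1, 0.0055 for Nsdhl, 0.11 for Sc5d, 0.335 for Dhcr7, 0.036 for Insig1, 0.302 for Insig2, 0.236 for Scarb1, 0.334 for Npc2, 0.282 for Nr1h3 and 0.357 for Abca1. When single libraries were left out, the values crossed 0 for 13 members, with ranges of -0.306 to 0.018 for Acat2, -0.193 to 0.214 for Mvd, -0.028 to 0.275 for Ggps1, -0.246 to 0.077 for Fdft1, -0.078 to 0.153 for Lss, -0.15 to 0.01 for Cyp51, -0.092 to 0.118 for Hsd17b7, -0.169 to 0.064 for Dhcr7, -0.284 to 0.045 for Npc2, -0.027 to 0.296 for Stard4, -0.073 to 0.36 for Nr1h2, -0.366 to 0.01 for Nr1h3 and -0.227 to 0.063 for Abca1. No sign turned with a pseudocount of 0.1 TPM, without the filter, with a mean of at least 5 TPM or with the replicate block. With a mean of at least 5 TPM only 31 members were tested, as Mvd and Hsd17b7 did not reach it. Read depth was unknown, and with 3 libraries a group the median standard error of a member was 0.207 on the log2 scale.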
